A study of Homo sapiens with 6 samples.

Results

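Polypyrimidine tract binding protein 1 (PTBP1), its paralogs PTBP2 and PTBP3, and 5 RNA-binding proteins that act with it (RAVER1, RAVER2, MATR3, HNRNPL and HNRNPLL) were followed by mRNA sequencing in MHCC97H, a line of human liver cancer cells. The 8 genes were chosen by symbol, by a rule that uses no measured value but was set with earlier results of these data known, and fill 9 of the 58825 gene identifiers in the deposited table, since MATR3 has 2. All 9 identifiers passed the filter on low counts, as did 19393 identifiers in all. The study sequenced mRNA of 3 libraries labelled shControl (genotype label WT) and 3 labelled shPTBP1 (genotype label PTBP1 Knockdown) to find genes and splicing events that depend on PTBP1. Every library comes from the same line, and the shPTBP1 cells carry a short hairpin RNA against PTBP1 that the paper describes as stably introduced. Which hairpin or hairpins they carry, and whether libraries come from separate cultures, is not given in the sources used here, so p-values measure the spread between these libraries, which may be technical.

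PTBP proteins bind pyrimidine-rich stretches of pre-mRNA through RNA recognition motifs and most often repress the inclusion of nearby exons. In most non-neuronal cells PTBP1 is the main paralog, and it keeps PTBP2, the neuronal paralog, low by causing an exon of PTBP2 to be skipped, which yields an mRNA open to nonsense-mediated decay. PTBP1 limits its own mRNA through the matching exon. RAVER1 and RAVER2 are co-regulators that bind PTBP1, MATR3 is a nuclear matrix protein that also binds it, and HNRNPL and HNRNPLL are related proteins that bind CA-rich RNA and act with or against PTBP1 on shared exons.

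The exon through which PTBP1 limits its own mRNA and PTBP2 is 34 bases long, as is the matching exon of PTBP3. Skipping it leaves a remainder of 1 base after whole codons and shifts the reading frame. It is shown because PTBP1 is known to lower PTBP2 through this exon. A level per gene, as given for PTBP2 below, does not measure use of the exon. In GENCODE release 29 on GRCh38 it is exon 11 of 15 of transcript PTBP1-203 on chromosome 19 from 807869 to 807902, plus strand. In PTBP2-202 it is exon 10 of 14, on chromosome 1 from 96806419 to 96806452, plus strand, and in PTBP3-204 it is exon 11 of 15, on chromosome 9 from 112231380 to 112231413, minus strand. The sequences are given 5′ to 3′ as in the transcript, with capitals at the 19 bases that all 3 share.
PTBP1: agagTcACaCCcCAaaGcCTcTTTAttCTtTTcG
PTBP2: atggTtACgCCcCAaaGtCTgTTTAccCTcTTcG
PTBP3: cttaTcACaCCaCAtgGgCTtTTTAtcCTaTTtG
PTBP1 and PTBP2 were identical at 25 of the 34 bases, PTBP1 and PTBP3 at 22, and PTBP2 and PTBP3 at 21.

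When the exon was removed from these transcripts in silico, each reading frame met a stop codon. Its end lay 27 bases after the new junction and 361 bases upstream of the last exon junction. The stretches below run from 15 bases before the junction to that stop codon, which is in capitals.
PTBP1 without exon 11: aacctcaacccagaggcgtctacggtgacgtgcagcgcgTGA
PTBP2 without exon 10: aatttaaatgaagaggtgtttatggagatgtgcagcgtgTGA
PTBP3 without exon 11: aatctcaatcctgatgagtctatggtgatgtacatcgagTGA
The annotation holds 2 PTBP1 transcripts that join the flanking exons directly, both typed as nonsense-mediated decay, and 3 such PTBP2 transcripts, typed as processed transcripts. It holds 0 such PTBP3 transcripts. The deposited values are per gene, so the use of this exon was not analysed here.

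Between 68704509 and 85317970 counts were deposited per library. The libraries numbered 3 differed from those numbered 1 and 2 in blood-cell transcripts. The summed level of 11 blood-cell markers, hemoglobin genes among them, was 610 to 1017 FPKM (fragments per kilobase of transcript, scaled to the fragments of the library) in the libraries numbered 1 and 2 and 3.52 and 3.60 in shControl 3 and shPTBP1 3. Across genes, log2 counts per 1e6 (CPM) of shControl 3 correlated at 0.962 and 0.967 with shControl 1 and 2 and at 0.972 to 0.975 with the shPTBP1 libraries. Of 12 markers of hepatocytes or hepatocellular carcinoma, KRT8 and KRT18, keratins of simple epithelia, were the 2 that reached 1 FPKM. AFP, ALB, TF, APOB, FGB and TTR were listed at 0 FPKM in every library (TF with up to 11 counts). HNF4A did not exceed 0.02 FPKM, so these markers were at or near 0. The part of blood-cell transcripts in the results was not tested. Values that moved most when shControl 3 was left out are also given without it.

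PTBP1 itself (ENSG00000011304, chromosome 19 of hg38 from 797075 to 812327) came first, as the targeted gene. In shControl 1, 2 and 3 it stood at 21.2, 16.4 and 27.4 FPKM, and at 17.3, 16.9 and 18.0 FPKM in the libraries labelled shPTBP1. The groups overlapped, and shControl 2 had less PTBP1 mRNA than each library labelled shPTBP1. The mean was 21.6 ± 5.50 FPKM in shControl and 17.4 ± 0.54 in shPTBP1 (SD, n = 3 each). Its log2 fold change, shPTBP1 minus shControl, was -0.29 (standard error 0.18, adjusted p = 0.953, edgeR's quasi-likelihood test with Benjamini-Hochberg adjustment over all genes tested), and -0.10 without shControl 3 and -0.45 without shControl 2. Because PTBP1 mRNA did not differ between the groups beyond their spread, every direction below is between libraries as labelled. In bulk RNA, fewer cells that express a gene and less RNA of it per cell cannot be told apart.

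The study's RT-qPCR primers for PTBP1 are shown because they read another part of the same mRNA than a value over the whole gene.
First primer: gctgtcatttccgtttgc
Second primer: gggtcggttcctgctatt
The first primer matched the antisense strand across the junction of exons 3 and 4 of PTBP1-203, and the second matched the sense strand in exon 1, which gives a product of 193 bases. Both matched in 6 of the 21 annotated PTBP1 transcripts, and neither matched a transcript of PTBP2 or PTBP3.

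PTBP2 (ENSG00000117569, chromosome 1 from 96721665 to 96823738) was the member that differed most between the groups. The shControl libraries held 2.01, 1.88 and 0.61 FPKM and the shPTBP1 libraries 3.80, 4.06 and 3.21 FPKM. Every library labelled shPTBP1 lay above every shControl library, and shControl 3, which had the most PTBP1, had the least PTBP2. The mean was 1.5 ± 0.77 FPKM in shControl and 3.69 ± 0.44 in shPTBP1 (SD, n = 3 each). The log2 fold change was 1.32 (standard error 0.41), a fold of 2.49, with an unadjusted p of 0.0152 and an adjusted p = 0.718 in edgeR, so PTBP2 did not pass the threshold over all genes. Without shControl 3 it was 0.94 (standard error 0.13, adjusted p = 0.0549, edgeR), and in the libraries numbered 1 and 2 alone 1.02 (standard error 0.11, adjusted p = 0.0644, edgeR). DESeq2 gave 1.31 with an adjusted p of 0.0516. Over the other alternatives in edgeR and limma the adjusted p was 0.432 or higher. More of all genes were also called in the settings with low values. An unadjusted p under 0.05 was reached by 16.6% without shControl 3 and 17.7% in numbers 1 and 2 only, against 5.69% in edgeR on all 6 libraries. DESeq2 called 166 genes at the adjusted threshold, against 6 in edgeR. With any 1 of the 6 libraries left out the value was 0.94 to 1.60. PTBP2 was higher by 1.79, 2.18 and 2.60 FPKM in shPTBP1 1, 2 and 3 than in the shControl library of that number. The sign in both cases follows from the lack of overlap between the groups and is no further support. In shControl 2, with 16.4 FPKM of PTBP1, PTBP2 was at 1.88 FPKM, while in shPTBP1 2, with 16.9 FPKM of PTBP1, it was at 4.06. These, like shControl 3, are single libraries, and whether PTBP2 followed PTBP1 was not tested. No gene in the table overlaps the PTBP2 locus.

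PTBP3 (ENSG00000119314, chromosome 9 from 112217716 to 112333664), a paralog found in many tissues and first described in blood cells, had 10.5, 10.5 and 8.29 FPKM in shControl and 9.35, 8.52 and 8.10 FPKM in shPTBP1. The groups overlapped, with shControl 3 below shPTBP1 1 and 2. Its log2 fold change was -0.15 (standard error 0.13, adjusted p = 0.971, edgeR). Without shControl 3 it was -0.26 (unadjusted p = 0.0318, adjusted p = 0.248, edgeR). In that setting 16.6% of all genes had an unadjusted p under 0.05, against 5.69% in edgeR on all 6 libraries. In FPKM, PTBP3 was not higher in the libraries labelled shPTBP1 in any of the 3 library numbers. In CPM, shPTBP1 3 (81.1) lay above shControl 3 (79.2).

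**Figure D1:**
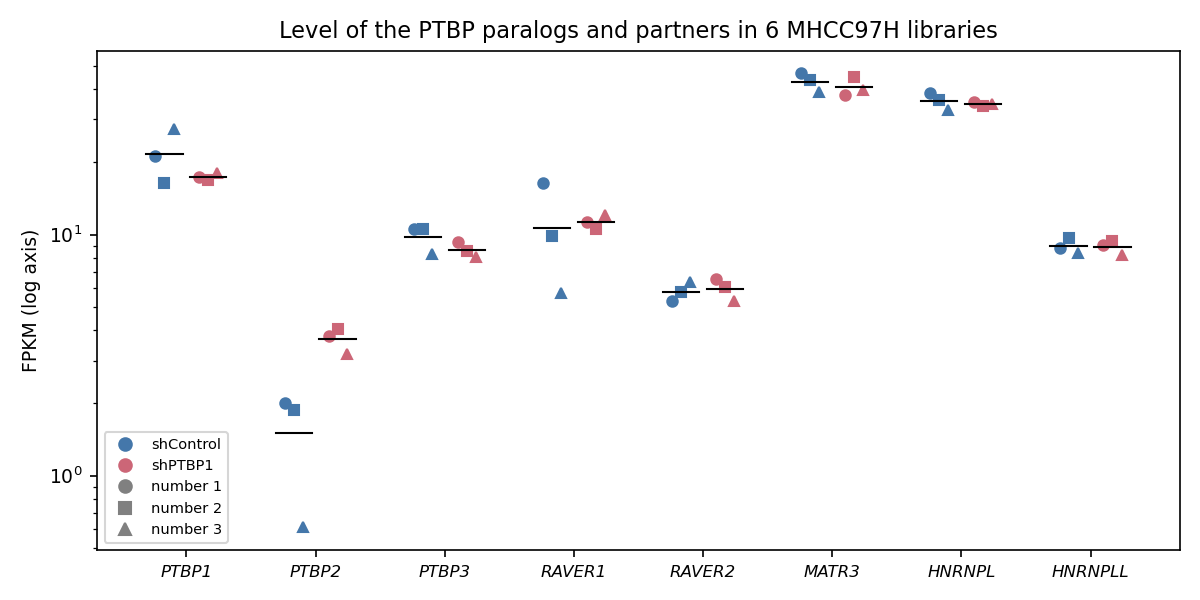
FPKM (log axis) of the 8 genes in 6 MHCC97H libraries, with 1 point per library (colour gives the label, shape the library number) and a line at the mean of each group (n = 3). PTBP2 is separated by label, 0.61 to 2.01 FPKM against 3.21 to 4.06, and the groups of the other 7 genes overlap, and MATR3 is the sum of its 2 identifiers.

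Of the 9 identifiers, 0 passed an adjusted p of 0.05 in edgeR, against 0.0309% of all genes tested (0.0206% higher and 0.0103% lower). PTBP2 was the 1 identifier at an unadjusted p under 0.05, against 5.69% of all genes (3.58% higher and 2.11% lower), and also the 1 whose groups did not overlap, against 11.9% of all genes either way and 6.49% with shPTBP1 higher and 5.46% with it lower. By DESeq2 and by limma on log2(FPKM + 1) 0 members passed as well. PTBP2 stood at rank 411 by p among the 19393 identifiers, and 195 genes had both a larger log2 fold change and groups without overlap. The median log2 fold change was 0.02 over the 9 identifiers and -0.01 over all genes.

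**Figure D2:**
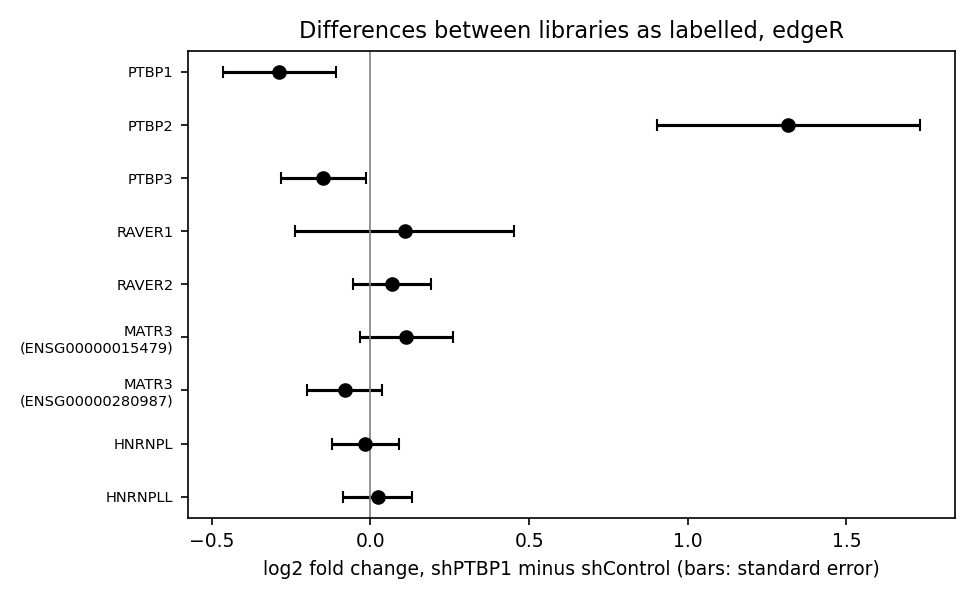
Fitted log2 difference, shPTBP1 minus shControl, for the 9 identifiers from edgeR, with the standard error as bars (3 libraries per group). PTBP2 lies at 1.32 and the other identifiers between -0.29 (PTBP1) and 0.11.

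The relative abundance of the paralogs was taken from FPKM, which is per length and so can be compared between genes. PTBP1 was the most abundant in every library, PTBP3 came next and PTBP2 was the least. As a share of the summed FPKM, PTBP1 made up 62.9%, 57.0% and 75.5% in shControl and 56.8%, 57.3% and 61.4% in shPTBP1. PTBP3 made up 31.2%, 36.5% and 22.9% in shControl and 30.7%, 28.9% and 27.7% in shPTBP1. PTBP2 made up 5.97%, 6.53% and 1.68% in shControl and 12.5%, 13.8% and 10.97% in shPTBP1, without overlap between the groups.

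The mean share of PTBP2 was 4.73% ± 2.65 in shControl and 12.4% ± 1.40 in shPTBP1 (SD, n = 3 each), a difference of 7.68 percentage points, or 6.16 without shControl 3 (exact permutation test, two-sided, p = 0.1, adjusted p = 0.3 over 6 comparisons). With 3 libraries against 3 this test cannot go below 0.1. The mean share of PTBP1 was 65.1% ± 9.45 and 58.5% ± 2.51 (exact permutation p = 0.3), and that of PTBP3 was 30.2% ± 6.88 and 29.1% ± 1.55 (exact permutation p = 0.8), for shControl and shPTBP1 in each case. The PTBP1 share differed by -6.61 percentage points, by -1.43 without shControl 3 and by -10.7 without shControl 2, so 1 library decided its size. PTBP1 exceeded PTBP2 by 10.5, 8.72 and 44.9 times in shControl and by 4.54, 4.16 and 5.60 times in shPTBP1, again without overlap. The log2 ratio of PTBP1 to PTBP2 was 4.003 ± 1.29 in shControl and 2.24 ± 0.22 in shPTBP1 (SD, n = 3 each, exact permutation p = 0.1), and the difference was -1.76, or -1.02 without shControl 3. PTBP1 exceeded PTBP3 by 2.02, 1.56 and 3.30 times in shControl and by 1.85, 1.98 and 2.22 times in shPTBP1, and these groups overlapped.

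With possible compensation between the paralogs in view, their summed FPKM was described. It was 33.7, 28.8 and 36.3 in shControl and 30.4, 29.5 and 29.3 in shPTBP1. The groups overlapped, with shControl 2 below all 3 libraries labelled shPTBP1. The mean sum was 32.9 ± 3.79 and 29.7 ± 0.61 FPKM (SD, n = 3 each, exact permutation p = 0.4), a difference of -3.19 FPKM. It was -1.51 FPKM without shControl 3 and -5.25 FPKM without shControl 2 (exact permutation p = 0.1, the smallest that 2 against 3 libraries allow). By gene, the mean differences were -4.27 FPKM for PTBP1, 2.19 for PTBP2 and -1.11 for PTBP3. Without shControl 3 they were -1.41 FPKM for PTBP1, 1.75 for PTBP2 and -1.85 for PTBP3, so whether the PTBP2 difference was smaller or larger in size than that of PTBP1 rested on shControl 3. The difference of PTBP1 did not exceed the spread of the shControl libraries. Levels per gene do not measure protein or exon use, so whether PTBP2 made up for PTBP1 was not tested.

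**Figure D3:**
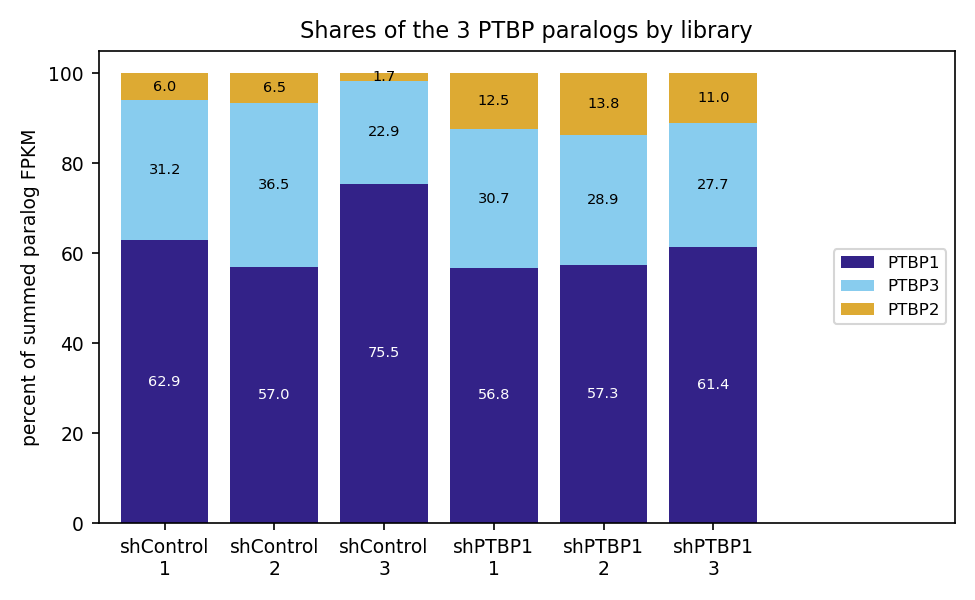
Share of each PTBP paralog, in percent of the summed FPKM of the 3, in each of the 6 libraries (1 bar per library). PTBP2 takes 1.68% to 6.53% in shControl and 10.97% to 13.8% in shPTBP1, and PTBP1 takes the largest share in every library.

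Among the partners, RAVER1 (ENSG00000161847, chromosome 19 from 10316212 to 10333638) varied most. It had 16.3, 9.85 and 5.74 FPKM in shControl and 11.3, 10.6 and 12.1 FPKM in shPTBP1. The shControl libraries lay on both sides of the shPTBP1 libraries, whose values were close together. Its log2 fold change was 0.11 (standard error 0.35, adjusted p = 0.995, edgeR), and it was 0.57 without shControl 1 and -0.20 without shControl 3, neither past the threshold. RAVER2 (ENSG00000162437, chromosome 1 from 64745095 to 64833232) had 5.28 to 6.34 FPKM in shControl and 5.32 to 6.51 in shPTBP1, and its log2 fold change stood at 0.07 (SE 0.12, adjusted p = 0.984, edgeR). RAVER1 was 3.09 times as abundant as RAVER2 in shControl 1 and 0.905 times in shControl 3, so the order of the pair turned within shControl. RAVER2 meets the antisense gene JAK1 in only 4 bases.

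MATR3 is deposited under 2 identifiers on chromosome 5 that share 5141 exonic bases, 42.5% of ENSG00000015479 (139293648 to 139331359) and 80.9% of ENSG00000280987 (139273752 to 139331671). Reads from shared exons cannot be assigned with certainty, so the sum is the safer value. It was 46.6, 43.6 and 39.1 FPKM in shControl and 37.8, 45.0 and 39.7 FPKM in shPTBP1, with overlap. Of this sum, 81.8% to 86.3% lay under ENSG00000280987 in every library. The log2 fold change was 0.11 (standard error 0.15) for the first identifier, -0.08 (standard error 0.12) for the second and -0.03 (standard error 0.12, adjusted p = 0.994, edgeR) for the summed counts. The second identifier also shares 626 exonic bases with SNHG4, a small nucleolar RNA host gene on the same strand with a mean of 11.5 FPKM.

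HNRNPL (ENSG00000104824, chromosome 19 from 38836388 to 38852347) had 38.6, 36.2 and 32.7 FPKM in shControl and 35.5, 34.1 and 34.8 FPKM in shPTBP1. Its log2 fold change was -0.016 (standard error 0.11, adjusted p = 0.996, edgeR). HNRNPLL (ENSG00000143889, chromosome 2 from 38561969 to 38603586), known for switching exons of the CD45 gene in T cells, had 8.80, 9.64 and 8.36 FPKM in shControl and 9.07, 9.40 and 8.26 FPKM in shPTBP1. Its log2 fold change was 0.02 (standard error 0.11, adjusted p = 0.995, edgeR). HNRNPL was 3.63 to 4.38 times as abundant as HNRNPLL over all 6 libraries.

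The pseudogene HNRNPLP2 on chromosome 15 had 9.85 to 11.4 FPKM, and its ratio to HNRNPL stayed between 0.28 and 0.32 in every library. Of the stretches of 50 bases in HNRNPLP2, 24.8% were also in HNRNPL transcripts. Between PTBP1, PTBP2 and PTBP3 0 stretches of 50 bases were shared, and the pseudogene PTBP1P was listed at 0 in every library.

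Over all 6 libraries the order of mean levels was MATR3 (41.9 FPKM), HNRNPL (35.3), PTBP1 (19.5), RAVER1 (10.97), PTBP3 (9.21), HNRNPLL (8.92), RAVER2 (5.89) and PTBP2 (2.60 FPKM). PTBP1 lay below HNRNPL and above RAVER1, PTBP3 and the genes after them in every library. The ranges of RAVER1, PTBP3 and HNRNPLL overlapped, and PTBP3 was above HNRNPLL in 3 of 6 libraries, so these neighbours did not differ beyond their spread. MATR3 was above HNRNPL in all 6 libraries although their ranges overlapped. RAVER2 lay below HNRNPLL and above PTBP2 without overlap. The mean of MATR3 exceeded that of 95.3% of the genes tested, PTBP1 that of 89.2% and PTBP2 that of 53.7%.

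The spread among shControl libraries was wide for 3 members. In shControl the coefficient of variation of FPKM (n = 3) was 51.6% for PTBP2, 50.2% for RAVER1 and 25.4% for PTBP1, against a median of 14.7% over the 11986 genes tested with a mean of at least 1 FPKM. The other 5 genes were at 7.28% to 13.1%. In shPTBP1 it was 11.8% for PTBP2, 6.68% for RAVER1 and 3.10% for PTBP1, against a median of 10.3%. Relative to other genes, PTBP2 and RAVER1 were thus more variable than 94.3% and 93.9% of genes among shControl libraries. For both, shControl 3 was the lowest of all 6 libraries, while for PTBP1 it was the highest.

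**Figure D4:**
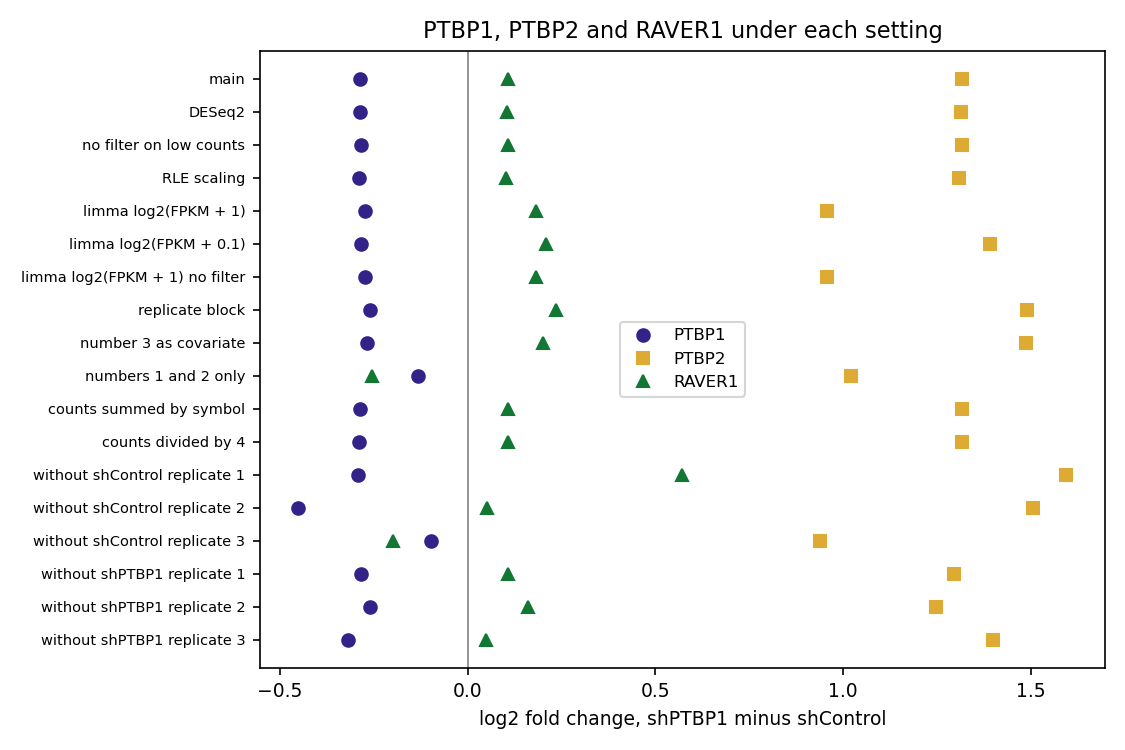
Fitted log2 difference, shPTBP1 minus shControl, for PTBP1, PTBP2 and RAVER1 in edgeR as reported and under each alternative setting, including each library left out. PTBP2 stays between 0.94 and 1.60 and PTBP1 between -0.45 and -0.10, while RAVER1 lies on both sides of 0, from -0.26 to 0.57.

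Wider lists put the members beside genes of the same machinery. Of 29 other pyrimidine-tract binders and splicing regulators, 26 were tested and 0 passed in edgeR over all genes or at an unadjusted p under 0.05. The median log2 fold change was -0.02, with 13 positive and 13 negative. PCBP2, a poly(C)-binding protein, came closest. It had 45.0, 37.8 and 41.6 FPKM in shControl and 46.1, 48.6 and 50.2 FPKM in shPTBP1, without overlap (log2 fold change 0.25, unadjusted p = 0.0523, adjusted p = 0.882, edgeR). CELF2, a CELF-family splicing factor, was next at 0.45 (unadjusted p = 0.0652, edgeR). Of the 26, 3 were higher in shPTBP1 without overlap, PCBP2 among them, and 1 was lower. Over all genes tested the shares were 6.49% higher and 5.46% lower. RBFOX1 was listed at 0 in every library, and ESRP1 and NOVA1 did not exceed 0.02 FPKM. U2AF2, which reads the polypyrimidine tract at 3′ splice sites, had 79.9, 65.4 and 40.1 FPKM in shControl and 42.0, 49.1 and 52.4 FPKM in shPTBP1, with shControl 3 again lowest (log2 fold change -0.35, adjusted p = 0.957, edgeR, named after its values were seen).

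Genes whose mRNA level has been linked to PTBP1 through splicing or intron retention formed another list, and no common direction is assumed for them. Of 8 such genes, DLG4, GABBR1, VAMP2, STAR, KIF5A, HPS1 and FLNA among them, 7 were tested, 0 passed in edgeR and 1, KIF5A, was at an unadjusted p under 0.05. KIF5A, a neuronal kinesin, had counts of 0, 4 and 0 in shControl and 15, 12 and 16 in shPTBP1, too low to give a fold. The median log2 fold change of the 7 was 0.09. DLG4, the postsynaptic scaffold PSD-95, had 1.48 to 2.04 FPKM in shControl and 1.33 to 1.70 in shPTBP1 (log2 fold change -0.11, adjusted p = 0.982, edgeR). GABBR1, a GABA-B receptor subunit, had 1.21 to 2.2 FPKM in shControl and 1.68 to 2.10 in shPTBP1 (log2 fold change 0.22, adjusted p = 0.975, edgeR).

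Of 8 genes with a classical PTBP1-regulated exon, ACTN1, TPM1, TPM2, FAS, PKM, SRC and CLTB among them, 0 passed in edgeR and 1, ACTN1, was at an unadjusted p under 0.05. ACTN1, the actin cross-linker alpha-actinin 1, had 17.8, 15.6 and 15.4 FPKM in shControl and 19.0, 21.6 and 22.4 FPKM in shPTBP1, without overlap (log2 fold change 0.40, standard error 0.12, unadjusted p = 0.0112, adjusted p = 0.667, edgeR). PKM, the pyruvate kinase whose exon choice PTBP1 governs, was at -0.09 (adjusted p = 0.982, edgeR). The median of the 8 was -0.06. A switch between exons need not change the level of a gene, so these values do not bear on splicing. Over the 3 lists, 2 of 41 genes tested (4.88%) had an unadjusted p under 0.05, against 5.69% of all genes.

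The genes whose pattern over the 6 libraries was most like that of PTBP1 were HAUS4, CYP1B1, NR2F2, USP43 and the pseudogene MTX1P1, with a root-mean-square difference of centred log2 CPM of 0.083 to 0.092. HAUS4, an augmin subunit of the mitotic spindle, had 18.6, 13.4 and 22.8 FPKM in shControl and 14.7, 12.45 and 13.95 FPKM in shPTBP1, with the same high shControl 3 as PTBP1. The genes most like PTBP2 were less close, at 0.30 to 0.35: MEX3C, MAP3K9, GSKIP, CYB5B and ZNF10. MAP3K9, a mixed-lineage kinase, had 1.36, 2.39 and 0.45 FPKM in shControl and 2.73, 2.97 and 2.48 FPKM in shPTBP1. All 5 shared with PTBP2 a minimum in shControl 3. The genes were chosen for likeness over these same libraries, so this minimum and the high shControl 3 of HAUS4 are part of the choice. Likeness was ranked over 11977 genes and 6 libraries and is a description.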

How the data were processed

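The authors deposited 1 table of FPKM and whole-number counts per gene and library. The submitters' notes list cutadapt 1.9, FastQC, HISAT2 2.2.1, StringTie and hg38, and further settings, including strand, are not given in the sources used here. The deposited counts were treated as estimated counts, since 32.5% to 34.4% of values from 1 to 40 were multiples of 4 in each library, and the depth in fragments is unknown. Intervals were not computed for this reason.

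Members and lists were chosen with earlier results of these data known. The test on counts was that of edgeR 4.0.16 in R 4.3.3 (TMM scaling, filterByExpr, quasi-likelihood F test, no covariates), with Benjamini-Hochberg adjustment over 19393 genes and a threshold of 0.05, and the steps were tested on simulated data. Standard errors are the absolute log2 fold change over the square root of F. Paralog shares and ratios used FPKM and exact permutation tests. The paper names no test for the sequencing. Alternatives were DESeq2 1.42.0, limma 3.58.1 on log2(FPKM + 1) or log2(FPKM + 0.1), other filters and scaling, a replicate block, a covariate for number 3, subsets and leaving out each library. Alternatives for the ratios were added after seeing the data.

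Named genes were the 8 members, genes of each list at an unadjusted p under 0.05 or else the 2 with the smallest p, and the 5 genes (mean of at least 1 FPKM) most like PTBP1 and PTBP2. PKM, DLG4, GABBR1, RBFOX1, ESRP1, NOVA1 and U2AF2 were named after their values were seen. Where a symbol has several identifiers, lists used the lowest. Exons, transcripts and overlaps come from GENCODE release 29 on GRCh38, which holds 58552 of the 58825 identifiers, and coordinates of genes come from the deposited table. Other steps ran in Python 3.11.15 with scipy 1.17.1, numpy 2.4.6, pandas 2.3.3 and, for plots, matplotlib 3.10.9. Splicing was not analysed here, and some list members are counted but not reported by name.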

Additional observations from a re-analysis of the deposited data

How the results depend on the processing

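The number of members past the adjusted threshold was 0 under all 17 alternatives fitted across genes. The log2 fold changes of PTBP1, PTBP2, PTBP3 and RAVER2 kept their sign under all of them. For all genes the count past the threshold was 6, and it was 166 in DESeq2, 1 in limma on log2(FPKM + 1) without a filter, 3 with number 3 as a covariate, 63 in numbers 1 and 2 only, and 2 to 136 when each library was left out, the highest without shControl 3. Listed genes at an unadjusted p under 0.05 numbered 2, and 1 in limma with a filter (both pseudocounts) and with counts divided by 4, 8 in numbers 1 and 2 only, and 1 to 9 when each library was left out, with 9 without shControl 3. Over all genes that share was 5.69%, and it was 17.7% in numbers 1 and 2 only and 16.6% without shControl 3.

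Signs turned for values near 0. In numbers 1 and 2 only, RAVER1 was at -0.26, the first MATR3 identifier at -0.056 and the log2 ratio of PTBP1 to PTBP3 differed by 0.11. With counts summed by symbol MATR3 was at -0.032. HNRNPLL was at -0.0031 in limma on log2(FPKM + 1), with and without a filter, and at -0.0033 with a pseudocount of 0.1. When each library was left out, RAVER1 ranged from -0.20 to 0.57, HNRNPL from -0.089 to 0.052, HNRNPLL from -0.034 to 0.081, the share difference of PTBP3 from -4.73 to 2.09 percentage points and the log2 ratio of PTBP1 to PTBP3 from -0.36 to 0.18. The cause was not tested.

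Library numbers did not meet the rule for pairing: deviations of same-numbered libraries correlated at -0.03, 0.14 and 0.05, and 1 of 3 shControl libraries correlated best with its own number. With the replicate block edgeR called 0 genes at the adjusted threshold (655 higher and 332 lower had an unadjusted p under 0.05), 1 listed gene had an unadjusted p under 0.05, and PTBP2 was at 1.49 (adjusted p = 0.893, edgeR) and PTBP1 at -0.26. Sign-flips within numbers gave the share of PTBP2 an exact permutation p of 0.25, the smallest that 3 pairs allow.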

Other observations

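Of 8 neuronal markers, 5 were tested and 0 passed in edgeR, against 0.0309% of all genes tested (median log2 fold change of the 5 was 0.05). ELAVL3 and NEFL were listed at 0 in every library. MAP2, a microtubule-associated protein of dendrites, was the 1 marker at an unadjusted p under 0.05, against 5.69% of all genes tested. It had 0.39, 0.56 and 0.71 FPKM in shControl and 1.44, 1.52 and 1.58 FPKM in shPTBP1, without overlap (log2 fold change 1.48, standard error 0.22, unadjusted p = 0.000239, adjusted p = 0.166, edgeR). In DESeq2 MAP2 passed the threshold (log2 fold change 1.48, adjusted p = 6.14e-07), as it did in edgeR without shControl 3 (1.69, adjusted p = 0.0366). In these settings 166 and 136 genes passed in all, against 6 in edgeR on all 6 libraries. Over the other alternatives in edgeR and limma the adjusted p of MAP2 was 0.0745 to 0.604. SNAP25, a synaptic membrane-fusion protein, had 7.11, 7.70 and 13.3 FPKM in shControl and 13.1, 12.4 and 11.5 FPKM in shPTBP1, with shControl 3 among the shPTBP1 libraries (named after its values were seen). The other tested markers, also named after their values were seen, had log2 fold changes of 0.05 (SYP), -0.08 (TUBB3) and -0.16 (RBFOX3).

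KRT8 had 41.8, 43.4 and 37.7 FPKM in shControl and 47.8, 53.2 and 49.5 FPKM in shPTBP1 (log2 fold change 0.32, unadjusted p = 0.0171, adjusted p = 0.726, edgeR). In edgeR, 0 of the 10 blood-cell markers with enough counts reached an unadjusted p of 0.05, against 5.69% of all genes tested.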
